A study of Mus musculus with 8 samples.

Results

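Aminoacyl-tRNA synthetases join each amino acid to its transfer RNA, the step that fixes which amino acid a codon will add to a protein. Animal cells keep one set of these enzymes in the cytosol and another in mitochondria, and both sets are encoded in the nucleus. Several cytosolic enzymes sit together in a multisynthetase complex, and the transcription factor ATF4, made when amino acids run short or proteins misfold, is known to switch on many cytosolic synthetase genes. The members were a list of 36 gene names, 20 for cytosolic enzymes and 16 for mitochondrial enzymes (names ending in 2). Of these, 35 had a probe set that the platform annotation assigned to that gene alone, out of 18193 such genes on the array, and Dars was not analysed here. Each gene was read from its brightest probe set, and the annotation named the methionine enzyme of the cytosol Mars1, given here as Mars.

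Messenger RNA was measured with 1-colour oligonucleotide arrays in whole wild-type mouse embryos, 4 arrays of blastocysts (embryonic day 4.5, collected 120 h after the ovulation-inducing hormone hCG) and 4 arrays of 8-cell embryos (day 2.5, 66 h after it). The embryos of both stages came from B6D2F1 females mated with B6D2F1 males, were collected as 1-cell zygotes and grew in KSOM culture medium, so all had developed in vitro and no group had a treatment. The blastocyst is a hollow embryo with an outer epithelium and an inner cell mass, while the cells of the 8-cell embryo are still alike in lineage. The labels do not say whether replicate arrays used different embryo pools. The p-values therefore reflect only the array-to-array spread, which may be technical, and the number of arrays limits the precision. In whole embryos, fewer cells of a type and less RNA per cell cannot be told apart.

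Marker genes were set against the stage labels. Of 9 trophectoderm and primitive endoderm markers 7 were higher in blastocysts and 2, Gata4 and Gata6, were lower, but 2 of the 7, Elf5 and Sox17, passed the filter only through the blastocyst arrays and had to differ. Of 5 epiblast and pluripotency markers Nanog and Sox2 were higher (1.63 and 4.01) and Pou5f1, Klf17 and Esrrb lower. The trophectoderm genes Cdx2 and Krt8 averaged 8768 ± 324 and 20384 ± 1571 in blastocysts, against 627 ± 66.7 and 1090 ± 147 in 8-cell embryos, and Klf17, a gene of early cleavage stages, averaged 114 ± 30.0 in blastocysts against 12913 ± 1811 in 8-cell embryos (SD, n = 4 each). Arrays of different stages correlated at 0.752 to 0.780 over the tested genes, and arrays of 1 stage at 0.977 to 0.988. The 8-cell values carry at most 1 decimal and nearly all blastocyst values carry more, so a difference in data handling and the stage itself cannot be told apart. The control probe sets for the 3' end of Actb exceeded those for its 5' end by 0.82 ± 0.11 log2 units in blastocysts and by 2.42 ± 0.19 in 8-cell embryos (SD, n = 4 each). The part of this gap in the results was not tested. For 7 markers of cumulus and granulosa cells, which surround the egg, the summed signal was 454 to 542 in blastocysts and 6558 to 10250 in 8-cell embryos. The 8-cell sums came mostly from Amhr2, and the other 6 markers summed to 190 to 248 in blastocysts and 200 to 365 in 8-cell embryos. Their part in the results was not tested.

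All arrays share 1 trimmed mean, so a change is a shift against the rest of the array, not in RNA per embryo. Differences are given on the log2(signal + 16) scale, blastocyst minus 8-cell, with their standard error (SE), folds are on that same scale, which makes folds of dim genes too small, and adjusted p-values come from limma with Benjamini-Hochberg adjustment over 13274 tested genes. A gene was called where that p was under 0.05. All 35 members exceeded each array's 40th percentile on all 8 arrays, so the filter on dim genes removed none of them.

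Most synthetase genes were higher in blastocysts. Of the 35, 23 rose, 9 fell and 3 did not pass, so 91.4% were called, beside 71.7% of all tested genes. Rises made up 65.7% of the members and 37.5% of all tested genes, and falls 25.7% and 34.2%. Over all tested genes 4978 rose and 4539 fell. The stages did not overlap on any array for 30 members, with blastocysts above in 23 and below in 7, and such separation held for 66.8% of all tested genes, 35.3% above and 31.5% below. The median difference was 0.97 for the 19 cytosolic enzymes, 0.65 for the 16 mitochondrial enzymes and 0.02 for all tested genes. With the arrays scaled to their bacterial hybridisation spike-ins the median of all tested genes moved to 0.34, with 5614 genes higher and 2972 lower, and the medians of the cytosolic and mitochondrial enzymes to 1.33 and 0.99.

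**Figure D1:**
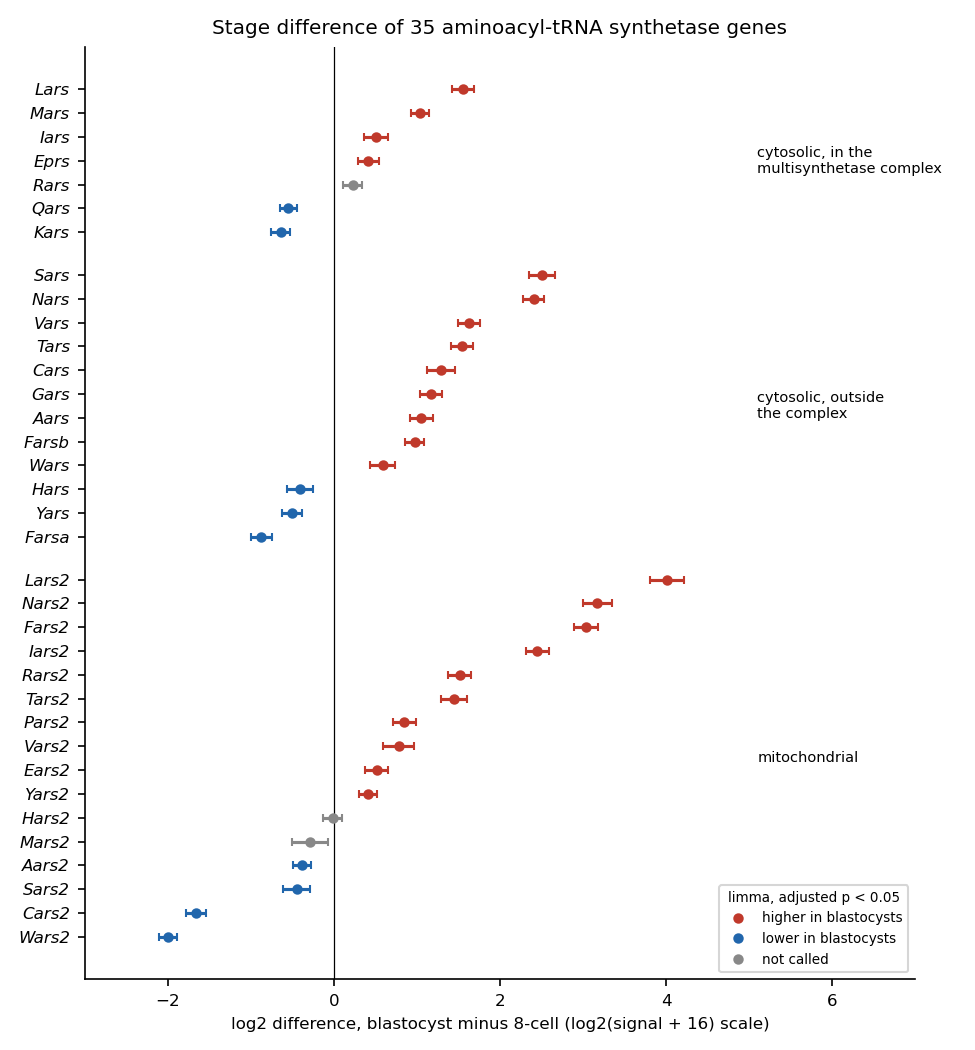
Log2 difference (blastocyst minus 8-cell, log2(signal + 16) scale, horizontal axis) of each of the 35 genes, in 3 groups down the page, as points with bars of 1 standard error, coloured by the limma call. Rises reach 4.01 (Lars2) among mitochondrial and 2.51 (Sars) among cytosolic enzymes, and the lowest value is that of Wars2 at -1.99.

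Among 19 cytosolic genes 13 rose, 5 fell and 1 did not pass, and among 16 mitochondrial genes 10 rose, 4 fell and 2 did not pass. Rises of at least 2-fold numbered 9 in the cytosolic and 6 in the mitochondrial set, and such falls 0 and 2, beside 45.8% of all tested genes called and changed that far, 25.4% higher and 20.4% lower. Cytosolic differences ran between -0.87 and 2.51 and mitochondrial ones between -1.99 and 4.01, with a standard deviation over genes of 1.01 and 1.70. Averaged over its genes, the cytosolic set stood 0.62 to 0.90 log2 units above its 8-cell mean on the 4 blastocyst arrays, and the mitochondrial set 0.77 to 0.92.

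The start regions of 5 cytosolic genes are shown because they hold the core of an element known from ATF4 target genes. Many ATF4 target genes carry a composite element for ATF4 and C/EBP factors near their start, whose core is TGATGNAA (read on either strand). This motif, chosen with the stage results known, was searched in the RefSeq promoter table of build GRCm38.p6. That table covers the last 250 bases before and the earliest 50 bases after each annotated start. The table held promoters for 26 of the 35 genes, 12 cytosolic and 14 mitochondrial. It held none for Cars, Hars, Lars, Nars, Rars, Vars, Wars, Hars2 and Pars2. Nars, Vars and Lars, which rose by 2.41, 1.63 and 1.55, were therefore not searched. The motif stood in 5 of the 12 cytosolic genes and in 0 of the 14 mitochondrial genes, beside 4.51% of the 27025 genes of the table (3.97% of its 32851 promoters). At that share few or none of 14 genes would hold it, so its absence from the mitochondrial genes is near the share of all genes. The 5 genes were Aars, Gars, Iars, Tars and Yars, and the first 4 rose while Yars fell. The stretches around their starts follow in the direction of the gene, with the motif in capitals, which reads TTGCATCA or TTTCATCA where it lies on the opposite strand.
Aars (alanine), chr8:111033722-111033861, plus strand: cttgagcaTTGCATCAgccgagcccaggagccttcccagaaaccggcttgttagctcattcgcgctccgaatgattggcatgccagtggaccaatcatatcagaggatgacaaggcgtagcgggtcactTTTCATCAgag
Gars (glycine), chr6:55037881-55038020, plus strand: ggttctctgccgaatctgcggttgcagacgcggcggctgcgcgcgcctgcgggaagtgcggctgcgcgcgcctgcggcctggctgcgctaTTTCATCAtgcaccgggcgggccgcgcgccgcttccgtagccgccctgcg
Iars (isoleucine), chr13:49682010-49682149, plus strand: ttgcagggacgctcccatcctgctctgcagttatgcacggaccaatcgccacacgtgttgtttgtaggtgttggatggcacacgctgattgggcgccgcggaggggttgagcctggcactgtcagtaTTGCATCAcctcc
Tars (threonine), chr15:11399639-11399778, minus strand: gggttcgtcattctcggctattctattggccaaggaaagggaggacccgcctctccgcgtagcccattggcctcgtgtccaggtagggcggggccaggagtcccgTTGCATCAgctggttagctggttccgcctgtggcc
Yars (tyrosine), chr4:129189783-129189922, plus strand: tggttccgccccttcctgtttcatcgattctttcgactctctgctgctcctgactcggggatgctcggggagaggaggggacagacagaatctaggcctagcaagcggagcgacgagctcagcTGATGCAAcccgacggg

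The annotated start lies 20 bases before the right-hand end of each stretch. The match begins 30 bases before the start in Gars and 15 before it in Tars, and 7 bases after it in Iars and 3 after it in Yars. Aars holds 1 match that begins 112 bases before its start and another 9 bases after it. Iars, Tars and the distal match of Aars share the same letters, which Yars holds on the other strand, and Gars and the proximal match of Aars share the other form. The remaining cytosolic genes in the table were Eprs, Mars, Farsb and Sars, which rose, and Kars, Qars and Farsa, which fell. The motif thus stood in 4 of the 8 cytosolic genes that rose and 1 of the 4 that fell. It stood in 0 of the 9 mitochondrial genes that rose. Whether the motif goes with the direction of change was not tested. The absence of these letters from the window says nothing of the factor. A match is a description of the sequence and not a binding site shown here. The E-box CACGTG was found in 4 of the 12 cytosolic and 1 of the 14 mitochondrial genes (8.09% of all genes), the NRF1 site core in 3 and 2 (5.19% of all genes), and the ETS core CCGGAAG in 5 and 4 (9.93% of all genes).

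Outside the complex, the cytosolic enzymes that moved most were those for serine and asparagine. Sars, the seryl enzyme, gave 9307, 6888, 6649 and 7895 on the 4 blastocyst arrays, against 1598, 1224, 1415 and 1112 on the 8-cell arrays. All blastocyst values stood far above all 8-cell values, a 5.69-fold rise (log2 difference 2.51, SE 0.16, adjusted p = 6.24e-07 by limma). Its other probe set gave 2.79. Both Sars probe sets are of the _a_at and _s_at types, which can match several transcripts, so Sars was not tested without such types. Nars, the asparaginyl enzyme, averaged 14820 ± 1823 in blastocysts and 2776 ± 245 in 8-cell embryos (SD, n = 4 each; 5.30-fold, 2.41, SE 0.13), and its other probe set gave 1.46. Vars, which charges valine and binds elongation factor 1, rose by 1.63 (SE 0.13), and Tars, the threonyl enzyme shown above, by 1.54 (SE 0.14). Gars, which supplies glycine to transfer RNAs of cytosol and mitochondria alike averaged 13440 ± 1458 in blastocysts and 5969 ± 761 in 8-cell embryos (SD, n = 4 each), a 2.25-fold rise. Aars, for alanine, rose by 1.05 (SE 0.14) and Cars, for cysteine, by 1.29 (SE 0.17). Wars, for tryptophan, gave 2897, 1855, 2053 and 2067 in blastocysts, against 1393, 1401, 1533 and 1471 in 8-cell embryos. Its groups did not overlap, and the rise was 0.59 (SE 0.15, adjusted p = 0.00576 by limma), while another of its probe sets gave 1.64. Without the _x_at, _s_at and _a_at probe sets, types that can match several transcripts, Wars gave 0.61 and was not called (adjusted p = 0.0568 by limma).

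The phenylalanyl enzyme of the cytosol is built from alpha and beta subunits, and their genes went opposite ways. Farsa, the alpha subunit, read 1213, 1093, 1163 and 1493 in blastocysts, against 2192, 2283, 2227 and 2385 in 8-cell embryos. All 4 blastocyst values lay below all 8-cell values, a 1.83-fold fall (log2 difference -0.87, SE 0.13, adjusted p = 0.000155 by limma). Farsb, the beta subunit, averaged 8275 ± 698 in blastocysts and 4200 ± 176 in 8-cell embryos (SD, n = 4 each), a rise of 0.97 (SE 0.11, adjusted p = 3.07e-05 by limma), and its 3 other probe sets gave 0.44, 0.50 and 1.79. The fall of Farsa did not pass with spike-in scaling (-0.52, adjusted p = 0.072 by limma) or without the _x_at, _s_at and _a_at probe sets (-0.38, adjusted p = 0.15), and Farsb gave 0.44 in the second case.

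Yars, the tyrosyl enzyme, and Hars, the histidyl enzyme, were also called lower. Yars averaged 1935 ± 147 in blastocysts and 2746 ± 272 in 8-cell embryos (SD, n = 4 each; -0.50, SE 0.12, adjusted p = 0.00415 by limma). Hars averaged 4335 ± 316 in blastocysts and 5806 ± 1035 in 8-cell embryos (-0.40, SE 0.15, adjusted p = 0.0378 by limma), its stages overlapped, and its other probe set gave 0.34 with no call. With spike-in scaling the Yars and Hars differences were -0.14 and -0.05 and neither was called (adjusted p = 0.622 and 0.861). The Hars call was lost without any 1 of 6 of the 8 arrays (adjusted p = 0.0673 to 0.0976 by limma), all but blastocyst replicate 1 and 8-cell replicate 4. Without the _x_at, _s_at and _a_at probe sets Hars was called higher (0.34, adjusted p = 0.0432).

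The multisynthetase complex was mixed. Of its 7 enzymes on the array 4 rose, 2 fell and 1 did not pass, with a median of 0.42, and of the 12 enzymes outside it 9 rose and 3 fell, with a median of 1.11. Rises made up 57.1% inside and 75% outside, beside 37.5% of all tested genes. Falls made up 28.6% and 25%, beside 34.2%. Lars, for leucine, averaged 7992 ± 1187 in blastocysts and 2698 ± 201 in 8-cell embryos (SD, n = 4 each), a rise of 1.55 (SE 0.13), and Mars, for methionine, rose by 1.04 (SE 0.11). Iars, for isoleucine, and Eprs, a fused enzyme for glutamate and proline, rose by 0.51 (SE 0.15, or 1.01 without the _x_at, _s_at and _a_at probe sets) and 0.42 (SE 0.13). The Eprs rise rested on 1 of its 4 tested probe sets, the others gave -0.56, -0.21 and 0.26 with no call, and with the mean of all probe sets it was -0.02 (adjusted p = 0.897 by limma). Rars, for arginine, averaged 11579 ± 951 in blastocysts and 9873 ± 758 in 8-cell embryos and did not pass (0.23, SE 0.12, adjusted p = 0.102 by limma). It was called higher with quantile normalization (0.45, adjusted p = 0.00439), spike-in scaling (0.59, adjusted p = 0.0255) and limma's intensity trend with robust estimation (adjusted p = 0.0297).

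The lower genes of the complex were those for lysine and glutamine. Kars, whose gene also supplies the mitochondrial lysyl enzyme, read 5195, 5355, 5089 and 4863 in blastocysts, against 7614, 7213, 8197 and 9072 in 8-cell embryos. Qars read 5846, 5860, 5864 and 5779 in blastocysts, against 8748, 8208, 8355 and 8844 in 8-cell embryos. In both genes all blastocyst values lay below all 8-cell values, and the spread between arrays was small beside the gap. Kars fell by 0.64 (SE 0.12, adjusted p = 0.000681 by limma) and Qars by 0.55 (SE 0.10, adjusted p = 0.000727), and the 3 other Qars probe sets were called lower too, at -0.96, -1.26 and -1.50. With spike-in scaling the 2 genes gave -0.28 and -0.19 and were not called (adjusted p = 0.298 and 0.487), where the median of all genes stood at 0.34, and without the _x_at, _s_at and _a_at probe sets Qars gave -1.50.

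The proteins that hold the complex together are Aimp1, Aimp2 and Eef1e1. Aimp1 averaged 6231 ± 43.8 in blastocysts and 2600 ± 185 in 8-cell embryos (SD, n = 4 each; 2.39-fold, 1.26, SE 0.11). Eef1e1 gave 0.28 (SE 0.11, adjusted p = 0.042 by limma), which did not pass without any 1 of 7 of the 8 arrays, all but 8-cell replicate 2 (adjusted p = 0.0558 to 0.0968), and Aimp2 did not pass (-0.02, SE 0.11).

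**Figure D2:**
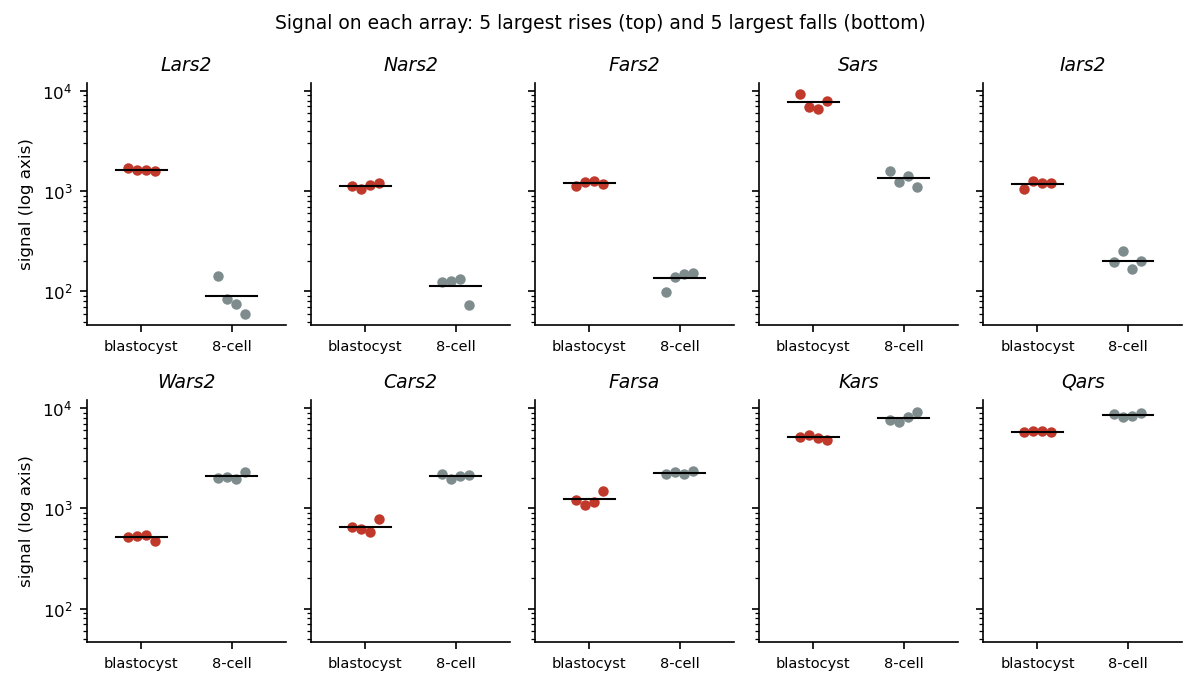
Signal on each array (log axis) for the 5 called members with the largest rises, in the top row, and the 5 with the largest falls, in the bottom row, with 4 blastocyst points left of 4 8-cell points and a line at each mean. In all 10 genes the stages do not overlap, as in Lars2 (1604 to 1683 in blastocysts, 59.3 to 143 in 8-cell embryos); signals of different probe sets are not comparable with each other.

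Mitochondrial enzymes charge the transfer RNAs that the mitochondrial genome encodes, and these serve to make subunits of the respiratory chain. The 4 largest rises of the set were those for leucine, asparagine, phenylalanine and isoleucine. Lars2 gave 1683, 1629, 1632 and 1604 on the blastocyst arrays, against 143, 84.6, 74.9 and 59.3 on the 8-cell arrays, so that the lowest blastocyst value was many times the highest 8-cell value. It rose 16.2-fold (log2 difference 4.01, SE 0.21, adjusted p = 1.97e-07 by limma), a difference above that of 98.1% of all tested genes. Another Lars2 probe set went the other way, with 16.8 ± 11.6 in blastocysts and 139 ± 25.1 in 8-cell embryos (SD, n = 4 each; -2.30), and averaging all Lars2 probe sets gave 0.99.

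Nars2 gave 1125, 1046, 1155 and 1211 in blastocysts, against 123, 126, 133 and 73.5 in 8-cell embryos. Fars2 gave 1126, 1246, 1271 and 1191 in blastocysts, against 97.6, 140, 151 and 152 in 8-cell embryos. Iars2 gave 1040, 1254, 1208 and 1197 in blastocysts, against 195, 250, 167 and 200 in 8-cell embryos. In each of the 3 genes the blastocyst arrays stood together, far above the 8-cell arrays. The rises were 9.02-fold for Nars2 (3.17, SE 0.17), 8.21-fold for Fars2 (3.04, SE 0.15) and 5.48-fold for Iars2 (2.45, SE 0.14), with adjusted p-values of 2.37e-07, 1.35e-07 and 3.31e-07 by limma. With the mean of all probe sets, which takes in dim ones, Nars2 gave 1.44 and Fars2 1.95. Both Fars2 probe sets are of the _a_at and _x_at types, and the dimmer of them gave 0.85.

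Smaller rises of the mitochondrial set were those of Rars2 for arginine (1.51, SE 0.14), Tars2 for threonine (1.45, SE 0.15), Pars2 for proline (0.85, SE 0.14), Vars2 for valine (0.78, SE 0.19), Ears2 for glutamate (0.52, SE 0.14) and Yars2 for tyrosine (0.41, SE 0.11). Rars2 averaged 3801 ± 462 in blastocysts and 1318 ± 146 in 8-cell embryos (SD, n = 4 each). Yars2 and Ears2 did not hold their sign with the mean of all probe sets, at -0.16 (adjusted p = 0.316 by limma) and -0.10 (adjusted p = 0.519), since another Yars2 probe set was called lower at -0.74 and the other 2 tested Ears2 probe sets gave -0.38 and -0.30. With quantile normalization neither was called, at 0.14 for Yars2 (adjusted p = 0.282 by limma) and 0.26 for Ears2 (adjusted p = 0.113), which left 8 mitochondrial rises.

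Wars2 and Cars2, for tryptophan and cysteine, fell most of all members. Wars2 read 514, 529, 540 and 469 in blastocysts, against 2017, 2063, 1971 and 2300 in 8-cell embryos. Cars2 read 648, 618, 588 and 781 in blastocysts, against 2182, 1982, 2110 and 2157 in 8-cell embryos. The stages lay far apart in both, and the falls were 3.98-fold for Wars2 (-1.99, SE 0.11, adjusted p = 2.74e-07 by limma) and 3.16-fold for Cars2 (-1.66, SE 0.12, adjusted p = 1.56e-06). A second tested probe set of each was called lower too, at -2.30 and -1.45, and both genes were called lower under all 20 alternative settings tried.

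Sars2, for serine, read 353, 285, 335 and 462 in blastocysts, against 485, 416, 519 and 538 in 8-cell embryos. Its stages overlapped, and its fall of 0.45 (SE 0.16, adjusted p = 0.031 by limma) was lost without any 1 of 6 of the 8 arrays (adjusted p = 0.0566 to 0.0885), all but blastocyst replicate 4 and 8-cell replicate 2. Aars2, for alanine, averaged 238 ± 19.4 in blastocysts and 313 ± 15.8 in 8-cell embryos (-0.38, SE 0.11, adjusted p = 0.0115 by limma). With spike-in scaling Sars2 and Aars2 gave -0.10 and -0.04 and were not called (adjusted p = 0.744 and 0.893). Hars2, for histidine, did not pass on its brightest probe set (-0.01, SE 0.12), while its other probe set averaged 141 ± 23.9 in blastocysts and 528 ± 43.0 in 8-cell embryos and was called lower (-1.81, adjusted p = 3.74e-06 by limma across all tested probe sets). Mars2, for methionine, was dim, at 58.8 ± 21.2 in blastocysts and 72.4 ± 7.77 in 8-cell embryos, and did not pass (-0.29, SE 0.21).

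**Figure D3:**
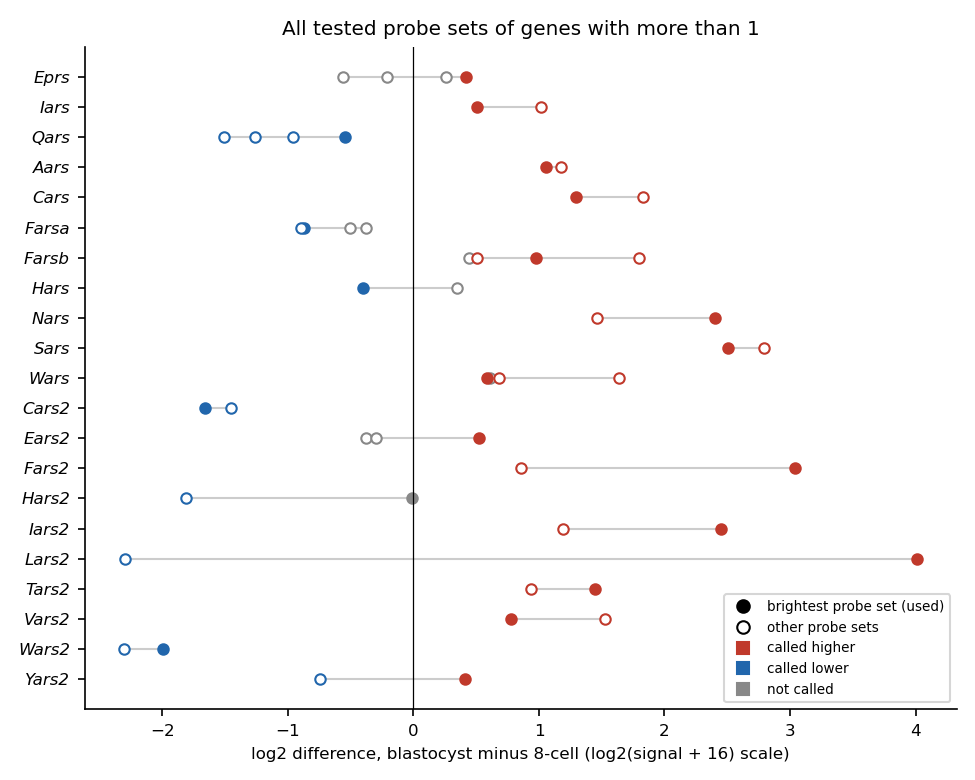
Log2 difference (blastocyst minus 8-cell, log2(signal + 16) scale) of every tested probe set of the 21 members with more than 1, with a filled point for the brightest probe set and open points for the others, coloured by call. Lars2 (4.01 and -2.30) and Yars2 (0.41 and -0.74) hold calls in both directions.

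Of the 21 members with several tested probe sets, 9 had all of them called higher and 3, Cars2, Qars and Wars2, all called lower. Taken singly, 66.4% of all tested probe sets were called in either direction. The share of all genes with every probe set called in the same direction was not computed. Calls in both directions occurred in 2 members, Lars2 and Yars2, as the plot of all tested probe sets shows. The difference between 3' and 5' control probe sets also moved with the stage, as given above, and its part in these disagreements was not tested.

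Each cytosolic enzyme was then set beside its mitochondrial counterpart by how far each moved, since signals of different probe sets are not comparable. In all, 17 pairs were compared, with Farsa and Farsb both set against Fars2, and Eprs against Ears2 and Pars2, so that pairs share genes. In 14 pairs both genes were called, with 8 pairs where both rose, 0 where both fell and 6 with opposite calls. Opposite calls numbered 2 with spike-in scaling (Cars/Cars2 and Wars/Wars2). Without the _x_at, _s_at and _a_at probe sets 12 pairs were left, and 3 had opposite calls, Aars/Aars2, Cars/Cars2 and Hars/Hars2. Hars/Hars2 was not among the 6 above. Of those 6, Farsa/Fars2, Sars/Sars2 and Yars/Yars2 could not be compared in that setting, and Wars lost its call. Cytosolic minus mitochondrial was above 0 in 7 pairs and below 0 in 10, but with the mean of all probe sets these numbers were 11 and 6. On the per-array log2 difference within a pair, 13 pairs separated the stages without overlap (exact two-sided permutation test over 70 assignments, p = 0.0286, the lowest value possible with 4 arrays a stage; adjusted p = 0.0374 over the 17 pairs). The remaining 4 pairs did not pass this exact test, at p = 0.0857 (Eprs and Pars2), 0.143 (Hars and Hars2), 0.6 (Tars and Tars2) and 0.629 (Eprs and Ears2). Taken singly, 66.8% of all tested genes separated the stages, and the share among pairs of other genes was not computed.

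The 4 pairs that moved most differently were those for phenylalanine (alpha subunit), cysteine, serine and tryptophan. Farsa fell while Fars2 rose, and the difference between their log2 differences was -3.91 (SE 0.16). The other 3 went the opposite way. Cars gave 1435, 939, 1335 and 1086 in blastocysts, against 421, 494, 422 and 568 in 8-cell embryos, without overlap, while Cars2 fell, and the pair differed by 2.96 (SE 0.21). Sars rose while Sars2 was called lower, a difference of 2.95 (SE 0.20), and Wars rose while Wars2 fell, a difference of 2.58 (SE 0.16). Leucine and isoleucine went with phenylalanine, the mitochondrial gene rising further, at -2.46 (SE 0.26) and -1.94 (SE 0.19). With the mean of all probe sets the Lars/Lars2 difference turned to 0.56 (exact permutation p = 0.0571), and Nars/Nars2, at -0.77 (SE 0.22), turned to 0.50 (exact permutation p = 0.0286). For threonine the difference was 0.10 (SE 0.17), within its error.

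**Figure D4:**
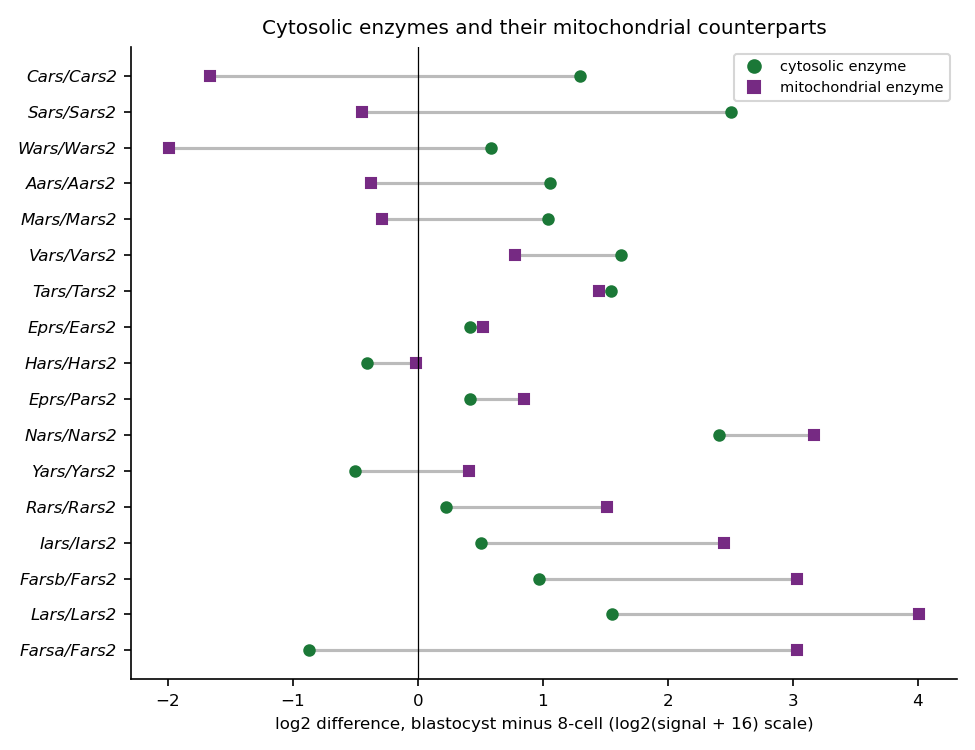
Log2 difference (blastocyst minus 8-cell, log2(signal + 16) scale) of the cytosolic enzyme (circle) and the mitochondrial enzyme (square) of each of 17 pairs, joined by a line and ordered by cytosolic minus mitochondrial. The pairs run between 2.96 for Cars and Cars2 at the top and -3.91 for Farsa and Fars2 at the bottom.

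Synthetases fall into class I and class II, which differ in the fold of the catalytic domain. Of 19 class I genes 13 rose and 4 fell, and of 16 class II genes on the array 10 rose and 5 fell, with medians of 0.52 and 1.01. Rises made up 68.4% of class I and 62.5% of class II, beside 37.5% of all tested genes. Falls made up 21.1% and 31.2%, beside 34.2%. Eprs was counted in class I, by its glutamyl part, although its prolyl part belongs to class II. Among the 26 genes with a promoter in the RefSeq table, 6 had another gene that starts within 1000 bases on the opposite strand, and all 6 neighbours were tested. The member and its neighbour were called in the same direction in 3 cases and in opposite directions in 3. Of all tested genes 71.7% were called, and the directions in other such neighbour pairs were not examined. Fars2 rose with Lyrm4 (1.54, SE 0.15) and Rars2 with the replication origin gene Orc3 (1.34, SE 0.16), and Yars fell as S100pbp did (-1.18, SE 0.13). Kars fell while Terf2ip, a telomere protein gene, rose by 1.95 (SE 0.13), Ears2 rose while Ubfd1 fell by 1.88 (SE 0.12), and Sars2 was called lower while Mrps12, of the mitochondrial ribosome, rose by 0.76 (SE 0.15).

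Genes that use charged transfer RNA are given by route, and differences between these lists were not tested. Their counts stand beside 37.5% of all tested genes that rose and 34.2% that fell. Selenocysteine is made on a transfer RNA that Sars has charged with serine. Pstk, the kinase of that step, averaged 1227 ± 41.4 in blastocysts and 237 ± 65.2 in 8-cell embryos (SD, n = 4 each; 2.33, SE 0.18, or 1.49 when all its probe sets were averaged), and Sepsecs, the enzyme that finishes it, rose by 1.10 (SE 0.14, or 0.67 in that setting). Eefsec, which carries the product to the ribosome, rose by 2.18 (SE 0.16). Together with genes that remove wrongly charged amino acids, 7 of 8 tested genes of this list rose and 1, Prorsd1, fell (-0.70, SE 0.17, or -0.35 and not called with spike-in scaling, adjusted p = 0.282 by limma). With the mean of all probe sets 5 rose, since Dtd1 gave 0.086 and Secisbp2 0.078 (adjusted p = 0.723 and 0.577), against 0.93 and 0.57 on the brightest, and Aarsd1 was not called with quantile normalization (0.25, adjusted p = 0.0818).

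Mitochondria lack a glutaminyl synthetase and make glutaminyl-tRNA with an amidotransferase of subunits encoded by Qrsl1, Gatb and Gatc. Gatb averaged 343 ± 10.5 in blastocysts and 64.8 ± 16.03 in 8-cell embryos (SD, n = 4 each; 2.17, SE 0.15, or 1.21 when averaged over probe sets). Gatc rose by 1.27 (SE 0.17), and Qrsl1 did not pass (0.26, SE 0.13), but was called higher with median scaling (0.34), spike-in scaling (0.61), the mean of all probe sets (0.42) and without the _x_at, _s_at and _a_at probe sets (0.58), with adjusted p = 0.0382, 0.0398, 0.0148 and 0.00549 by limma. Mtfmt, which formylates the initiator methionyl-tRNA, rose by 1.32 (SE 0.19), and Tufm, the factor that brings charged transfer RNA to the mitochondrial ribosome, fell by 1.17 (SE 0.10, or by 0.24 with no call without the _x_at, _s_at and _a_at probe sets). Of 12 tested genes of mitochondrial transfer RNA use and translation 8 rose, 1 fell and 3 did not pass, with a median of 0.76. Rises made up 66.7% and falls 8.33% of these 12. Of 6 cytosolic elongation and release factors 0 rose, 2 fell (Eef2 by 0.49 and Etf1 by 0.45) and 4 did not pass, with a median of -0.18. Of all tested genes 37.5% rose and 34.2% fell, beside 0% and 33.3% of these 6. At an unadjusted p under 0.05 limma gave 0 rising and 3 falling. However, Eef1b2 was called higher with quantile normalization (0.36, adjusted p = 0.00665 by limma) and Gspt1 with the mean of all probe sets (0.33, adjusted p = 0.0379), and Eef2 lost its call in both settings (-0.24 and -0.09). With spike-in scaling Eef2 and Etf1 were not called (-0.13 and -0.09, adjusted p = 0.617 and 0.721 by limma). Eef1d was called lower with the mean of all probe sets (-0.72, adjusted p = 0.00206 by limma). It was also called lower with the filter at the 60th percentile (adjusted p = 0.0422) and limma's intensity trend with robust estimation (adjusted p = 0.0113).

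In processing and export of transfer RNA, 5 of 13 tested genes rose, 6 fell and 2 did not pass (median -0.19). Rises made up 38.5% and falls 46.2%, beside 37.5% and 34.2% of all tested genes. With spike-in scaling 3 of the 13 fell, and without the _x_at, _s_at and _a_at probe sets 2 of 10 tested genes rose. Subunits of the mitochondrial enzyme that trims the 5' end went opposite ways. Hsd17b10 averaged 3338 ± 356 in blastocysts and 251.5 ± 90.9 in 8-cell embryos (SD, n = 4 each; 3.71, SE 0.23), and Trmt10c fell 2.79-fold (-1.48, SE 0.14, or -0.73 when averaged over probe sets). Pop1, of the nuclear enzyme for the same cut, fell by 2.74 (SE 0.15), or by 1.41 in that setting, and Xpot, which exports transfer RNA to the cytosol, by 0.82 (SE 0.10), and gave 0.13 when averaged over probe sets (adjusted p = 0.333 by limma) and -0.47 with spike-in scaling (adjusted p = 0.0812), without a call.

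In the ATF4 and amino acid response list 7 of 12 tested genes rose, 4 fell and 1 did not pass, with a median of 0.89. Rises made up 58.3% and falls 33.3% of this list, beside 37.5% and 34.2% of all tested genes. Atf4 averaged 10315 ± 1362 in blastocysts and 5983 ± 857 in 8-cell embryos (SD, n = 4 each; 0.79, SE 0.15, or 0.30 when averaged over probe sets). Asns, encoding asparagine synthetase, averaged 8779 ± 1623 in blastocysts and 836 ± 139 in 8-cell embryos, a 10.3-fold rise (3.37, SE 0.18). Ddit3, encoding the stress factor CHOP, rose 10.1-fold (3.33, SE 0.25) and Chac1, a glutathione-degrading enzyme, 7.30-fold (2.87, SE 0.31). Trib3 was called higher (0.99, SE 0.30), but its stages overlapped. With quantile normalization Trib3 was not called (0.75, adjusted p = 0.0529 by limma). Atf3, a stress-induced factor, gave 2.25 (SE 0.25), but all its 8-cell values lay under the filter level, so it was tested only through the stage where it was high. Eif2ak4, encoding the kinase GCN2 that senses uncharged transfer RNA, rose by 1.41 (SE 0.19), but was lower at -0.62 without the _x_at, _s_at and _a_at probe sets (adjusted p = 0.0291 by limma) and was not called with the mean of all probe sets (0.39, adjusted p = 0.0655). The serine synthesis genes Psat1 and Phgdh fell by 1.15 (SE 0.14) and 1.14 (SE 0.11), and Sesn2 and Ppp1r15a by 0.93 (SE 0.22) and 1.06 (SE 0.18). Sesn2 was not called with spike-in scaling (-0.58, adjusted p = 0.0922 by limma).

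**Figure D5:**
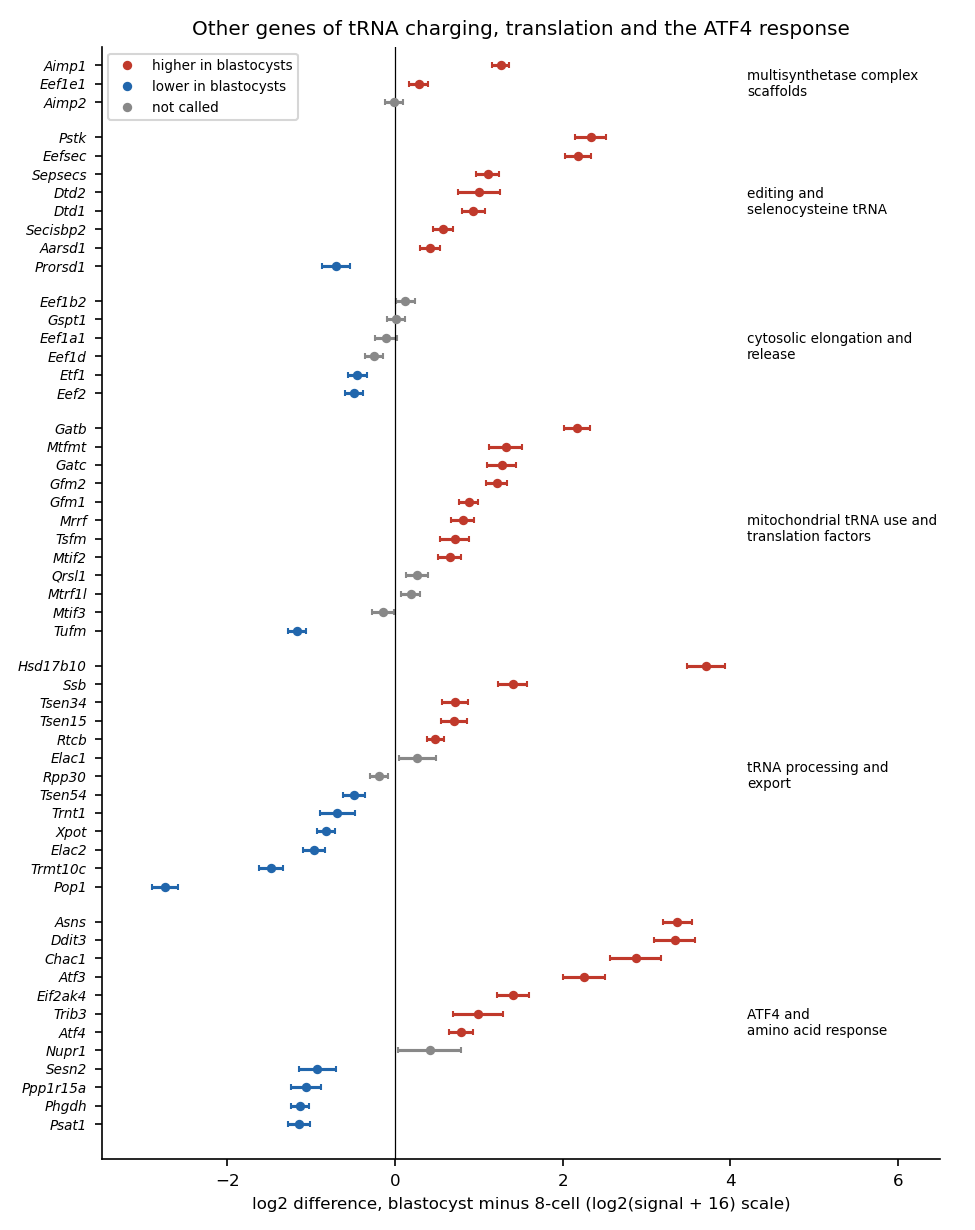
Log2 difference (blastocyst minus 8-cell, log2(signal + 16) scale, bars of 1 standard error) of the tested genes of 6 further lists, coloured by the limma call. Asns (3.37), Ddit3 (3.33) and Hsd17b10 (3.71) lie furthest to the right, and Pop1 (-2.74) furthest to the left.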

How the data were processed

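The deposited values are linear signal intensities of 45101 probe sets on 8 arrays. Per the labels' protocols, RNA was isolated with a small-sample kit, amplified with a labelling assay for small samples and biotin-labelled. The sources used here do not name the software behind the signals. Every array has a mean of 500 once the lowest 2% and the highest 2% of its values are removed.

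Groups follow the stage named in the sample titles, and signals were taken as log2(signal + 16). The platform annotation gave 1 symbol to 34945 probe sets and several to 932, and did not list 9160 others. The brightest probe set of a gene was used, and genes that exceeded the array's 40th percentile on 4 or more arrays were tested with limma (lmFit and eBayes, no covariates; R 4.3.3, limma 3.58.1) and Benjamini-Hochberg adjustment. Plots used Python 3.11.15 and matplotlib 3.10.9. The script was tested on simulated data. Lists were described by counts and medians, with no set test. Pairs were compared with an exact permutation test. Replicate numbers did not pair the arrays (correlations -0.0354 to -0.0242 between same-numbered arrays). Members, lists and motifs were chosen with earlier results of these data known. Values on every array are given for the 5 largest rises and 5 largest falls among called members and for the 4 pairs that differed most. Promoters came from RefSeq (GRCm38.p6). The alternatives were other scalings, filters, probe set choices, variance models and added values, a replicate block and leaving out each array.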

Additional observations from a re-analysis of the deposited data

Results flagged for a closer look

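Among 70 groups of 4 arrays (35 genes at 2 stages), 2 held an array far from the other 3, and chance alone gives about 1 in 20. Lars read 9760 on blastocyst replicate 1, against 7260 to 7610 on the other blastocyst arrays. Nars2 read 73.5 on 8-cell replicate 4, against 123 to 133 on the other 8-cell arrays. Both genes were called higher without any 1 array.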

How the results depend on the processing

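Of 415 synthetase differences under other settings 385 kept direction and side of the threshold, 18 lost the call, 5 gained one and 7 changed sign, and without 1 array the numbers were 266, 12, 0 and 2 of 280. The cause of a change was not tested unless stated. The cytosolic median was 1.08 with quantile normalization, 1.33 with spike-in scaling and 0.81 without the _x_at, _s_at and _a_at probe sets. The mitochondrial median was 0.41, 0.99 and 0.52 in those settings, 0.72 with median scaling, 0.78 at the 60th percentile, where Mars2 was not tested, 0.38 with the mean of all probe sets, 0.56 with 64 added, and 0.56 to 0.74 without 1 array. Called lower were 2 mitochondrial genes with median scaling and 2 with spike-in scaling, which also left 0 cytosolic genes, 7 genes of the other lists (14 in the report) and 2972 of all tested genes. Without the _x_at, _s_at and _a_at probe sets 3 cytosolic genes were called lower, and 31 members were tested. Sars, Fars2, Tars2 and Yars2 dropped out there, since all their probe sets are of these types.

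Signs changed as follows. With quantile normalization Aimp2 gave 0.089, Eef1a1 0.14, Mtrf1l -0.068 and Eprs/Ears2 0.30. With median scaling Hars2 gave 0.064 and Aimp2 0.063. With spike-in scaling Hars2 gave 0.33, Mars2 0.0063, Aimp2 0.34, Eef1a1 0.25, Eef1d 0.11, Mtif3 0.21 and Rpp30 0.16. With the mean of all probe sets Eprs gave -0.023, Ears2 -0.10, Yars2 -0.16, Xpot 0.13, Eprs/Ears2 0.078, Hars/Hars2 0.88, Lars/Lars2 0.56 and Nars/Nars2 0.50. Without the _x_at, _s_at and _a_at probe sets Hars gave 0.34, Aimp2 0.0035, Gspt1 -0.0071, Eif2ak4 -0.62 and Hars/Hars2 2.15. Without 1 array Hars2 ran between -0.045 and 0.042, Aimp2 between -0.039 and 0.028, Gspt1 between -0.022 and 0.058, and Tars/Tars2 between -0.0082 and 0.18. Without 1 array 11 to 14 pairs passed.

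With the replicate number as a replicate block 12 cytosolic genes rose and 5 fell, 10 mitochondrial genes rose and 4 fell, and 4862 of all tested genes rose and 4412 fell. Eprs (adjusted p = 0.0521 by limma) and Eef1e1 (0.0924) lost their calls under the block.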
